A study of Ambystoma mexicanum with 20 samples.

Results

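The RNAs described here were those strongly depleted from the vegetal pole of the axolotl oocyte (Ambystoma mexicanum, a salamander). A feature of the count table belonged to the set if its mean level over the 20 libraries was at least 5 CPM (the count as a share of the library total, scaled to parts per 1e6) and its mean in the vegetal segment E was at most 25% of its mean in the animal segment A. Its mean in segment D also had to lie under that in A, and its CPM in E under that in A in all 4 oocytes. Of the 32960 features in the table, 208 met this rule, which is 1.00% of the 20742 features at 5 CPM or more. The set stayed under the limit of 300, so no feature was removed for abundance. The levels of A, D and E thus chose the members, and their differences are given as a description. Segments B and C entered the rule only through the mean over all libraries.

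The labels give no treatment or genotype. Each of 4 oocytes was frozen, sliced and divided into 5 consecutive segments named A (animal end), B, C, D and E (vegetal end), with 1 library per segment and oocyte. Whether the oocytes came from the same female is not stated. Libraries were made from 80 ng of total RNA after removal of ribosomal RNA, so a level is a share of the RNA of a segment and not an amount per segment.

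An amphibian oocyte is polarised before fertilisation. The animal side holds the large nucleus and most of the dark pigment, and the vegetal side is packed with yolk. In the frog Xenopus, RNAs anchored at the vegetal cortex carry germ plasm components and germ layer determinants, while other maternal RNAs are richer toward the animal pole. The identifiers of the count table are not paired with gene names, and 0 of them matched the axolotl genes listed by RefSeq, so what the members encode is not given here.

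Library totals ran from 806943 counts in segment E of oocyte 2 to 15554319 in segment A of oocyte 4. The E libraries of oocytes 1, 3 and 4 held 6651808, 2698617 and 5531886 counts. A count of 3, used as the floor of detection, corresponded to 3.72 CPM in E of oocyte 2 and to 0.451 CPM in E of oocyte 1. For 94 of the 208 members, 25% of the level in A of oocyte 2 lay under the floor of its E library. Such limits cover counting error only. The members had 0 counts in 123 cases in E of oocyte 2, in 56 in oocyte 3, in 31 in oocyte 4 and in 18 in oocyte 1. The A libraries had 0 such cases, which the rule fixed, since CPM in E had to lie under that in A. The most in a library of B, of C and of D were 26 (oocyte 4), 13 (oocyte 3) and 20 (oocyte 3). Of all 20742 features at 5 CPM or more, 10.4% had 0 counts in E of oocyte 2, 3.87% in oocyte 3, 1.80% in oocyte 4 and 1.59% in oocyte 1.

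Most members were RNAs of low to middling level. Their mean over all libraries had a median of 10.8 CPM and reached 257 CPM. There were 90 members between 5 and 10 CPM, 95 between 10 and 50 CPM and 23 above. Levels are not corrected for length, so an order of members by CPM is an order by reads and not by molecules.

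Together the members held 0.720% ± 0.0476 of the counts in A and 0.700% ± 0.0217 of those in B. Their share was 0.591% ± 0.0533 in C, then 0.348% ± 0.0724 in D, and 0.131% ± 0.0314 in E (SD over 4 oocytes each). The summed share was thus level over A and B, slightly lower in C, and dropped by the greater part over D and E. Over segments A to E the median level of a member was 16.9, 14.6, 13.2, 8.25 and 2.84 CPM. Depletion was strong but rarely complete. The median member kept 19.6% of its level in A, 38 kept 12.5% or less, and 6 had 0 counts in all 4 E libraries. The set had no natural edge at the limit, since 96 members kept 20% or more. A further 159 features met every other criterion and kept between 25% and 30%. The 2 members just inside kept 24.999% (13.8 CPM in A, 3.45 in E) and 24.8% (8.90 and 2.21 CPM). The 2 features just outside kept 25.03% (13.4 and 3.36 CPM) and 25.2% (15.4 and 3.89 CPM).

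**Figure D1:**
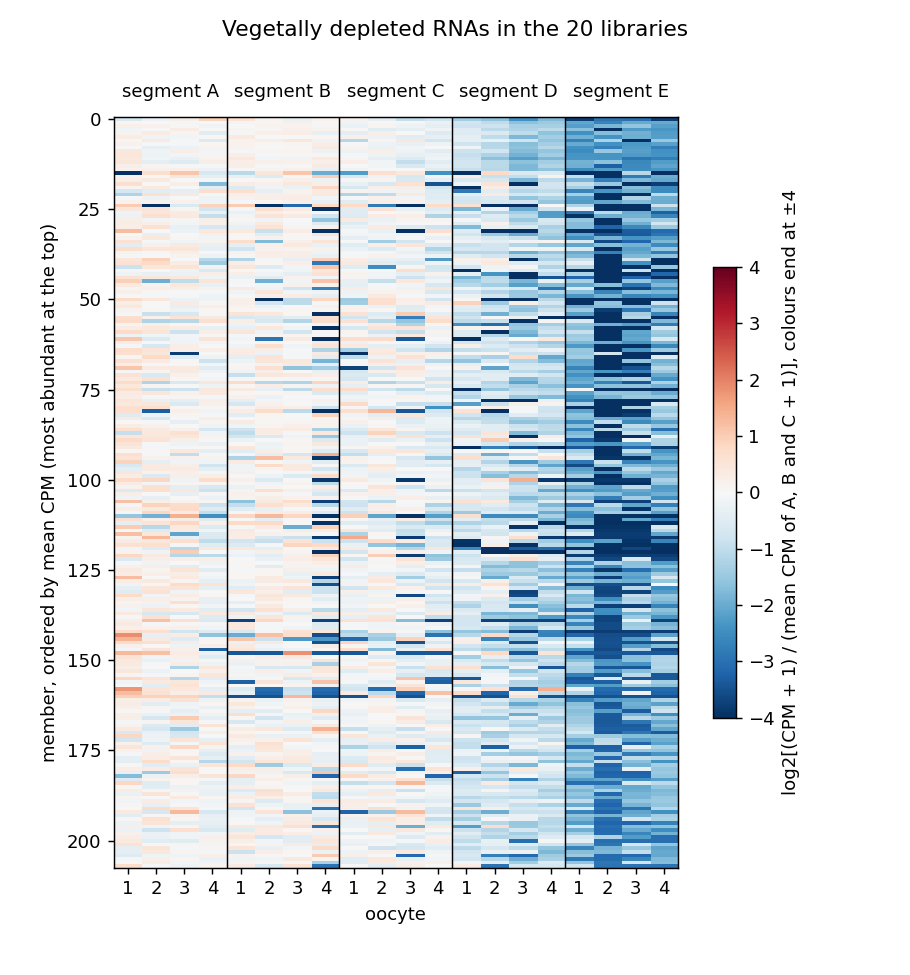
Level of each of the 208 members (one line each, the most abundant at the top) in the 20 libraries, as log2 of CPM plus 1 relative to the member's mean over segments A, B and C. Segment E is blue for nearly every member, segment D is paler blue, and the dark lines in E of oocyte 2 are mostly its 123 members with 0 counts.

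In each of the 5 most abundant members the mean fell from C to D and again from D to E, by different amounts. D held 29.7% of the mean of A, B and C in the most abundant, and between 43.9% and 54.6% in the others. The most abundant had 430 CPM ± 200.3 in A, 424 ± 103 in B and 281 ± 100.1 in C, against 112 ± 31.5 in D and 37.7 ± 12.1 in E (SD, n = 4). It kept 8.77% of its level in A, the lowest share among the 75 members with counts in all 4 E libraries. The next had 328 CPM ± 12.5 in A, 353 ± 22.2 in B and 307 ± 29.9 in C, against 145 ± 39.6 in D and 72.5 ± 14.5 in E (SD, n = 4), so that its E libraries lay under its D libraries and both under all of A, B and C. The following 3 kept 24.7%, 17.0% and 22.8% of their levels of 269, 247 and 221 CPM in A. The fourth of the 5 had 0 counts in E of oocyte 2, where its other 3 E libraries held 73.8, 48.2 and 46.1 CPM.

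The falls from A to E were ranked with E set to its floor of 3 counts per library, 1.46 CPM on average, for the 7 members whose E libraries all held at most 3 counts. These 7, among them the 6 with 0 counts throughout E, kept a smaller share of A as measured, but the floor bounds their falls. The 2 identifiers ranked highest in this way were uneven between oocytes. Their means in E also lay under 1.46 CPM but were not raised to it. Their folds are therefore not comparable with those of the 7, and their top ranks depend on this unequal treatment. AMEXTC_0340000002581 had 41.0, 8.30, 13.3 and 2.83 CPM in A of oocytes 1 to 4 and 0.301, 0, 0 and 1.63 CPM in E. The means of A and E differed 33.9-fold, but oocyte 4 kept 57.5% of its level in A. Its D libraries held 4.25, 18.7, 4.24 and 0.791 CPM. AMEXTC_0340000180462 had 30.3, 17.2, 16.3 and 25.3 CPM in A and 2.41, 0, 0.371 and 0 CPM in E of oocytes 1 to 4, a 32.1-fold difference of means with no overlap. In D it had 19.0 and 17.4 CPM in oocytes 1 and 4 and 0 counts in oocytes 2 and 3, while all 4 C libraries held between 17.7 and 23.9 CPM.

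Within single oocytes the level left in E varied. In oocyte 1 the median member kept 20.7% of its level in A, in oocyte 3 it kept 16.8% and in oocyte 4 it kept 22.5%. In oocyte 2 the median was 0%, since more than every other member had no count in that library. E held 25% of A or less in all 4 oocytes for 40 members, in 3 oocytes for 89, in 2 for 69 and in 1 for 10. A level above 50% of A was found for 12 members in oocyte 1, 4 in oocyte 2, 13 in oocyte 3 and 19 in oocyte 4.

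**Figure D2:**
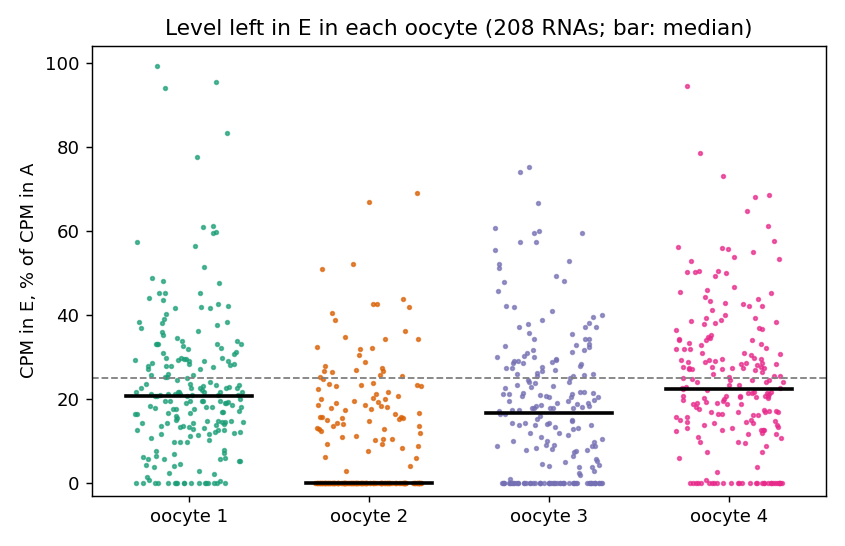
CPM in E as a percentage of CPM in A within each oocyte, one point per member, with the median as a bar and the 25% limit as a dashed line. The points of oocytes 1, 3 and 4 centre on 20.7%, 16.8% and 22.5%, and those of oocyte 2 pile up at 0.

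The rule was applied to 3 oocytes at a time and the fourth, which then played no part in the choice, was read. Chosen on oocytes 2, 3 and 4, 321 features met the rule. Of these, 105 (32.7%) held 25% or less in E of oocyte 1, where 3.65% of all features at 5 CPM or more did. Read in oocyte 2, 119 of 234 chosen features (50.9%) did so, against 13.1% of all features. Read in oocyte 3 they were 109 of 280 (38.9%) against 5.15%, and read in oocyte 4 they were 96 of 314 (30.6%) against 3.12%. In each left-out oocyte the chosen features thus held 25% or less more often than the background. Outside oocyte 2, most of the chosen features kept more than 25%. With oocytes 1 to 4 left out in turn, 172 of 321, 137 of 234, 167 of 280 and 179 of 314 were members. The shares at 25% or less therefore describe the rule and not the members alone. The background was not matched to the chosen features for level or for zeros in E. In E of left-out oocytes 1 to 4, 19, 83, 45 and 33 of the chosen features had no count. The E library of oocyte 2 was the shallowest, with a floor of 3.72 CPM. A missing count there can reflect low depth, so its higher share is not read as a stronger depletion. The median level of the chosen features in E was 36.0% of A in oocyte 1, 23.2% in oocyte 2, 31.2% in oocyte 3 and 35.1% in oocyte 4. Over all features these medians were 84.9%, 76.7%, 77.5% and 78.2%. E was under A for 83.5%, 84.2%, 87.5% and 89.2% of the chosen features in the left-out oocytes 1 to 4, against 61.9%, 67.3%, 69.7% and 73.3% of all features.

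Some zeros in E stood beside counts in other E libraries. From the mean CPM of the other 3 E libraries, a count of 10 or more was predicted in E of oocyte 1 for 148 members, and 11 of them had 0 counts. The numbers were 12 of 32 in oocyte 2, 19 of 80 in oocyte 3 and 17 of 138 in oocyte 4. Such a zero is called isolated here, though 1 high library can set the prediction while other E libraries also hold 0. For example, 1 member had 40.8 CPM in E of oocyte 3 and 0 counts in E of oocytes 1, 2 and 4. All 3 of its zeros counted as isolated. At least 1 isolated zero was found for 50 of 208 members (24.0%) and for 8.19% of all features at 5 CPM or more. Low values in E chose the members, so the higher share is part of the choice. With isolated zeros left out of the mean of E, 174 of the 208 still met the rule, and the 34 that did not had a median of 29.97% of A. What made these zeros was not tested.

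The contrast of E against A was also fitted across the whole table with edgeR's quasi-likelihood test, adjusted by the Benjamini-Hochberg method over 32302 tested features at a threshold of 0.05. All 208 members passed the filter on low counts, and 130 were called lower in E, where 7.73% of all tested features were. The rule used this contrast, so nothing is read from that count. The 75 members with counts in all 4 E libraries included 72 of the 130. The median fitted log2 change of members from A to E was -1.98 with TMM scaling (edgeR's default composition scaling), beside -0.06 for all tested features. With library totals these were -2.26 and -0.32, and with the authors' constants -3.01 and -1.09. Scaling by TMM raises E relative to A, and only 115 features, all of them members, met the rule on TMM-scaled CPM.

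To find where along the axis the level changed, neighbouring segments were compared. From A to B no change was resolved. The median member had 96.6% of its level of A in B, with 121 members lower in B and 87 higher, and 0 members were called by edgeR (percentage of all features called, 0). At an unadjusted p under 0.05 there were also 0 members, and DESeq2 called 0 members, with 1 lower and 1 higher unadjusted. Of all tested features, 1.04% passed unadjusted by edgeR and 1.26% by DESeq2, in either direction. The authors' constants scale B up relative to A, and with them 117 members were called between A and B, counted in either direction. The share of all features called with these constants is not given, so nothing about the members is read from this count.

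The step from B to C is the one that the choice of members left free. The median member had 89.1% of its level of B in C, and the middle 50% of members ran from 78.1% to 99.9%. The median within an oocyte was 89.6% of B in oocyte 1, 96.9% in oocyte 2, 83.8% in oocyte 3 and 86.5% in oocyte 4. All 20742 features at 5 CPM or more gave 100.4%, 100%, 99.0% and 100.8% in the same oocytes, so the members' medians lay lower in all 4. C lay under B in all 4 oocytes for 38 members (18.3%), where 7.8% of all features at 5 CPM or more did. The reverse order in all 4 oocytes was found for 3 members (1.44%), where 7.88% of all features had it. None of these differences was resolved for a single member. edgeR called 0 members for C against B (percentage of all features called, 0), and 1 member was lower at an unadjusted p under 0.05, with 0 higher. DESeq2 also called 0, with 2 lower and 0 higher unadjusted, and a block for the oocyte left the number at 0, with 8 lower and 0 higher unadjusted. Of all tested features, 1.41% passed unadjusted by edgeR, 1.62% by DESeq2 and 2.46% with the block, in either direction. The small unadjusted counts are therefore not read as a result about the members.

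The smallest p for C against B belonged to AMEXTC_0340000037353, with 159, 152, 157 and 170 CPM in B of oocytes 1 to 4 and 139, 124, 118 and 125 CPM in C. The B and C libraries did not overlap, and the fitted log2 difference was -0.33 (unadjusted p 0.0188, adjusted p 1 by edgeR). It fell on to 83.0, 64.6, 43.3 and 56.4 CPM in D and to 35.03, 26.0, 28.5 and 31.1 CPM in E, with D lower than C at an adjusted p of 0.000798 (edgeR). Each of the 4 E libraries kept between 18.4% and 21.7% of its own A. The next was AMEXTC_0340000248303, with 52.4, 56.6, 55.5 and 40.9 CPM in B and 43.2, 43.8, 37.2 and 27.1 CPM in C, where the groups overlapped but C was lower within each oocyte. Its log2 difference was -0.44 (unadjusted p 0.0501, adjusted p 1 by edgeR).

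**Figure D3:**
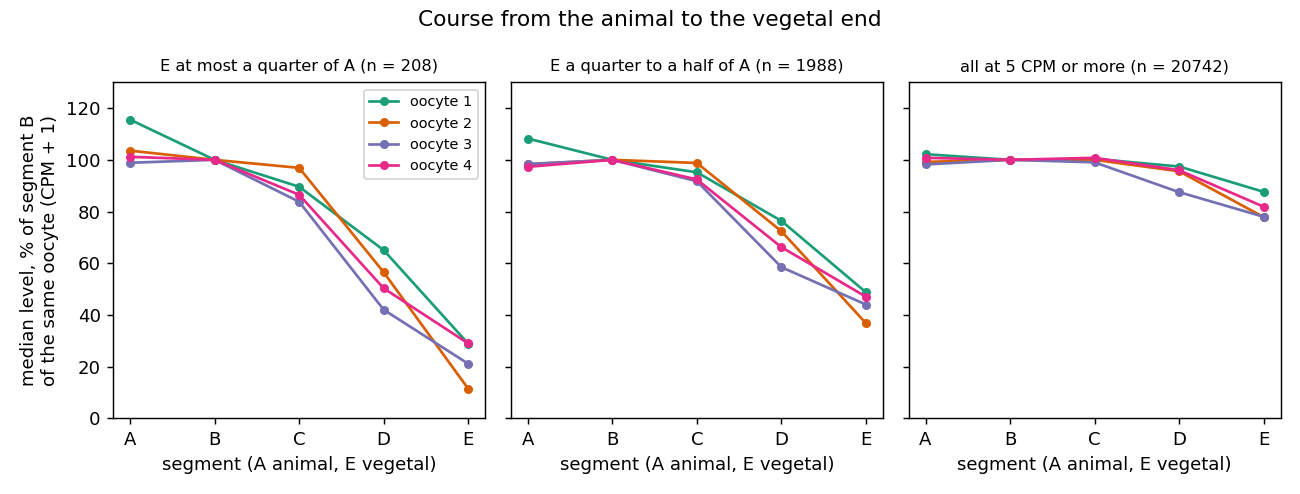
Median level in each segment as a percentage of segment B of the same oocyte (CPM plus 1), one line per oocyte, for the 208 members, for 1988 features that kept between 25% and 50% of A, and for all 20742 features at 5 CPM or more. The members lie lower in D than in C in all 4 oocytes, at between 42.0% and 65.0% of B in D and between 11.4% and 28.9% in E, while the line of all features stays at 77.9% or more.

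Segment D held about 50% of the level of the animal segments. The median member had 52.1% of its mean over A, B and C in D, and the middle 50% of members ran from 44.2% to 65.8%. edgeR called 24 members lower in D than in C and 0 higher. This is 11.5% of members, where 0.888% of all tested features were called lower in D. D was bounded by the rule (its mean lay under that of A), so the count describes members chosen for a fall. With the oocyte as a block 40 members were called lower in D (2.74% of all tested features), among them all 24. Without oocyte 2 the number was 8, without oocyte 3 it was 8, and without oocyte 4 it was 6.

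Members called between C and D had a higher level at the median than the other members. Their mean level had a median of 29.98 CPM, beside 10.2 CPM for the other members, and 10 of the 23 members above 50 CPM were called. The share of all features above 50 CPM that were called is not given, so this is not read as a trait of the members. The fitted log2 changes of the members called ran from -4.59 to -0.79, with a median of -1.08. The 4 D libraries all lay below the 4 C libraries for 65 members (31.2%), where 7.46% of all features at 5 CPM or more did. D was under C within each of the 4 oocytes for 119 members (57.2%), where 23.7% of all features were.

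Members differed in how much was left in D. In 89 members D held under 50% of the mean of A, B and C, among them 8 with under 25%, in 112 it held between 50% and 100%, and in 7 it held more. Of the 8 members with the least left in D, 3 were called lower in D than in C, and of the 7 with D above the mean of A, B and C, 0 were called lower in E than in D. The late fall of the latter was therefore not resolved from the spread between oocytes.

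AMEXTC_0340000058836 showed the steepest step to D. It had 27.0, 19.4, 19.5 and 21.4 CPM in A of oocytes 1 to 4, 28.1, 18.1, 21.6 and 18.4 in B, and 21.2, 23.9, 13.5 and 13.2 in C. In D it had 0, 2.23, 0.941 and 0 CPM, and in E 1.05, 0, 1.48 and 0.542 CPM. Every library of D and E thus lay far below every library of A, B and C, and D and E overlapped. The log2 difference of D and C was -4.59 (adjusted p 0.00213, edgeR). It passed in the 10 of 10 alternatives read for it, with adjusted p up to 0.0463. The fits without a filter and on thinned counts were not read for single RNAs. AMEXTC_0340000226462 had 14.996, 10.9, 7.01 and 22.1 CPM in A of oocytes 1 to 4 and 21.8, 16.6, 6.93 and 22.3 in C, against 2.03, 0, 0.706 and 1.05 CPM in D. A single count was found over its 4 E libraries, in oocyte 3. D and C did not overlap, with a log2 difference of -3.99 (adjusted p 0.00196, edgeR). Without oocyte 4 its adjusted p was 0.0621. In both RNAs most of the fall lay between C and D, unlike the median member, for which 60.9% of the fall from A to E was reached by D and 19.3% by C.

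From D to E the fall went on. E was under D in the means of 207 of the 208 members, and in those of 15376 of all 20742 features at 5 CPM or more. A fall over this step was thus common in the whole table. edgeR called 26 members lower in E, where 0.672% of all tested features were. With the oocyte as a block 46 members were called lower in E (2.38% of all tested features), among them 25 of the 26. Without oocyte 1 the number was 6, without oocyte 2 it was 1, and without oocyte 4 it was 15. E chose the members, so these counts are part of the choice. Without the block, the calls of the steps to D and to E were shared by 10 members, and 40 members were called for at least 1 of them.

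**Figure D4:**
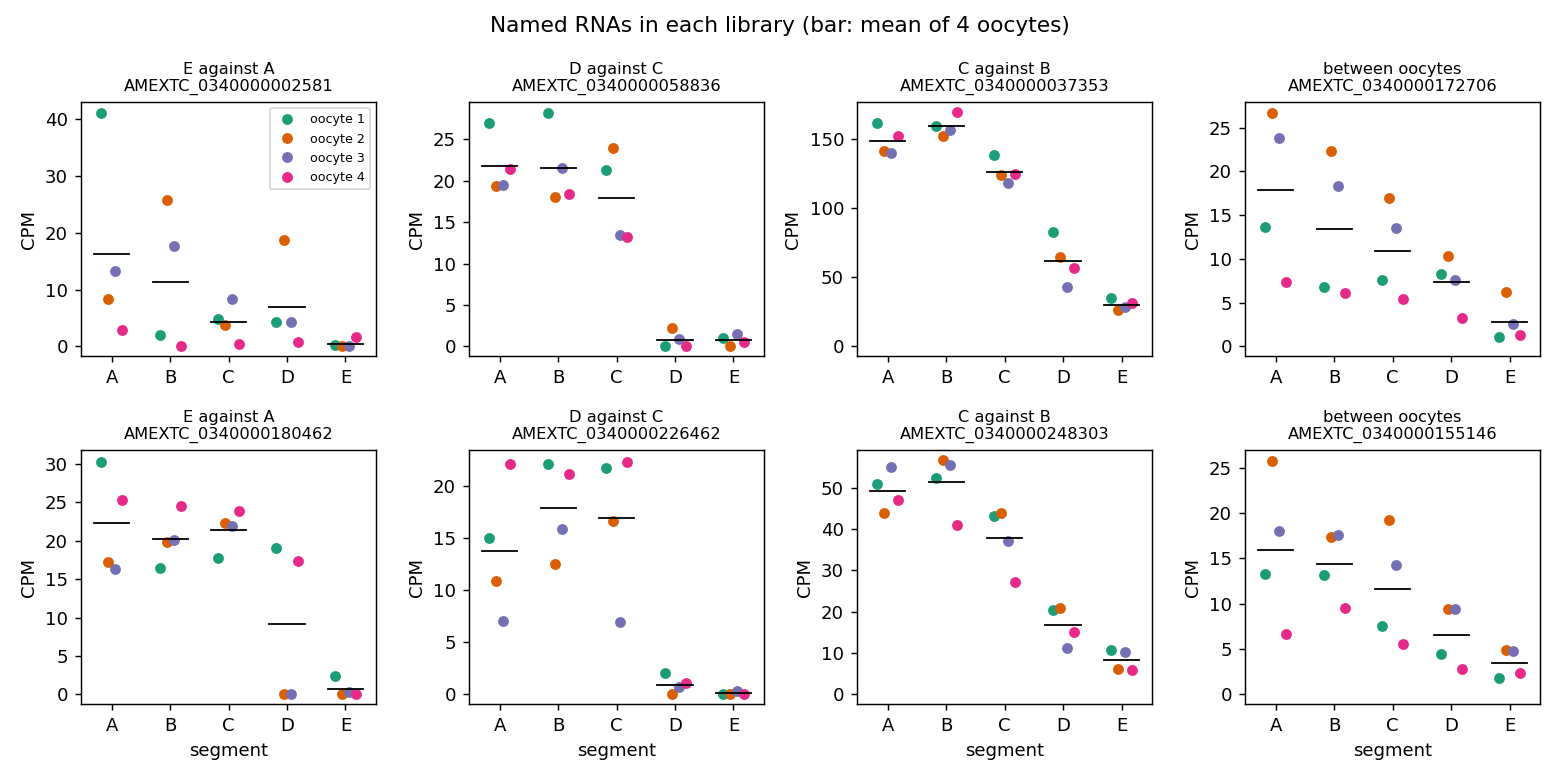
CPM of the 8 named RNAs in each library, coloured by oocyte, with the mean of each segment as a bar. The pair in the second column is near 0 in both D and E, and the pair in the fourth column is higher in oocytes 2 and 3 than in oocyte 4 in every segment.

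The course was compared with that of the 1988 features that met the other criteria and kept more than 25% and up to 50% of A. Their median within an oocyte was 95.2%, 98.8%, 91.7% and 92.4% of B in C of oocytes 1 to 4, above the members' value in each. They reached 11.8% of their fall from A to E by C and 57.8% by D at the median. Both sets were chosen on A, D and E, and no test of this difference was made.

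Levels also differed between oocytes. With segment and oocyte both in the model, edgeR's F-test called 28 members (13.5%) at an adjusted p under 0.05, where 26.2% of all tested features and 31.6% of those at 5 CPM or more were called. The share among members was thus under the background, which was not matched to them for level or for zeros in E. Whether members vary less between oocytes than like features was not tested. Over segments A, B and C, the oocyte of highest mean exceeded that of lowest mean by a median of 2.25-fold among the 28. Oocytes 2 and 3 were the highest pair for 15 of them and oocytes 1 and 4 for 10. The same split over all features called is not given, so it is not read as a trait of the members. Without oocyte 4, 12 members were called.

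The smallest p between oocytes belonged to AMEXTC_0340000172706, with 13.7, 26.7, 23.8 and 7.33 CPM in A of oocytes 1 to 4 and 7.53, 17.0, 13.5 and 5.42 CPM in C. Oocytes 2 and 3 were above oocytes 1 and 4 in A, B and C (adjusted p 0.000161, edgeR). In E it had 1.05, 6.20, 2.59 and 1.27 CPM, which is 7, 5, 7 and 7 counts. AMEXTC_0340000155146 had 13.3, 25.8, 18.0 and 6.69 CPM in A and 1.80, 4.96, 4.82 and 2.35 CPM in E, again highest in oocytes 2 and 3 (adjusted p 0.000191, edgeR). Both RNAs were lower in E than in A in every oocyte, as the rule required, from different starting levels.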

How the data were processed

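Raw counts per feature were deposited by the authors together with a table of scaled counts, a signal in which each value is the count times a constant per library. All scaled values (100%, within 0.01) gave whole reads equal to the deposited counts. Trimmomatic, STAR 2.5.3a, kallisto and DESeq2 are named in the submitters' processing notes, with no role given. The genome build, the annotation and how reads of similar features were divided are not given in the sources used here, so counts of near-identical features are uncertain. Every feature reached at least 30 counts in some library.

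CPM used library totals. Counts were tested in R 4.3.3 with edgeR 4.0.16, and DESeq2 1.42.0 was an alternative. The edgeR fit used filterByExpr (minimum count of 10 and total of 15), TMM, robust quasi-likelihood and segment means without an oocyte term. It was checked on simulated counts. These held no differences between oocytes, so that check cannot speak to the missing oocyte term. They also had the same spread for every feature, no isolated zeros built in and falls in E alone. The check therefore cannot speak to isolated zeros or to falls before E either. The count test with the authors' constants called 18715 features for E against A. Per the labels, an oocyte number marks the 5 libraries cut from 1 oocyte. Deviations of such libraries from segment means correlated with a median Pearson r of 0.352 across features (40 pairs of libraries, 0.217 to 0.526). In the main fit, p-values measure the spread between the 4 oocytes within a segment, with all 20 libraries treated as independent. In the block fit and in the test between oocytes, they measure the spread left after segment and oocyte.

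The members, comparisons and naming rule were chosen with earlier results of these data known. At most 2 identifiers are named per comparison: the largest falls of mean CPM with E raised to a floor of 3 counts per library where all 4 E libraries held at most 3 (E against A), the largest fitted falls among calls (D against C), and the smallest p (C against B, oocytes). Lists of named genes could not be applied.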

Additional observations from a re-analysis of the deposited data

Results flagged for a closer look

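In 50 groups of 4 libraries checked for a value far from the others, 2 stood out. For normally distributed values chance alone would flag about 1 in 20 groups, here 2.5. Both flagged groups held values near 0, where that rate need not hold. A single count beside 0 in all others is always flagged. AMEXTC_0340000180462 had 2.41 CPM in E of oocyte 1, which is 16 counts, beside 0, 0.371 and 0 CPM in E of oocytes 2, 3 and 4. AMEXTC_0340000226462 had 0.371 CPM in E of oocyte 3, a single count, beside 0 in the others.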

How the results depend on the processing

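The number of features that met the rule depended on its limits and on the scaling. It was 208 as given, 115 on TMM-scaled CPM, 1377 on the authors' scaled values, 579 with a floor of 1 CPM, 62 with a floor of 20 CPM, 38 with E at most 12.5% of A and 2196 with E at most 50%. It was 40 when each oocyte had to hold 25% or less, a setting chosen after seeing the data, as were the authors' constants in edgeR and the removal of isolated zeros. Leaving out each oocyte gave 234 to 321 features. Without segment E of oocyte 2, also added, 222 features met the rule, 137 of them members. For D against C, DESeq2 called 45 members, the replicate block 40, the authors' constants 175, and fits without an oocyte 6 to 18. Of all tested features, DESeq2 called 1862 for D against C, in either direction. With the authors' constants 117 members were called for B against A, counted in either direction, and 201 for E against A, which ran from 108 to 114 without an oocyte. These constants called 18715 of all tested features for E against A, in either direction. Between oocytes, DESeq2 called 48 members, counts thinned to the smallest library 16, and fits without an oocyte 12 to 26. The median step on the authors' scaled values was 1.27 from A to B and -2.54 from C to D, against -0.05 and -0.72 on CPM. Scaled values and CPM are both the count times a constant per library, so these median steps differ through the constants. For the other results listed so far, the cause was not tested. For E against D, whose alternatives were added later, DESeq2 called 47 members, the replicate block 46, library totals 43, thinned counts 16, the authors' constants 126, and fits without an oocyte 1 to 18. Of all tested features, DESeq2 called 1484 for E against D, in either direction. For most alternative fits the share of all features called is not given, so nothing about the members is read from their counts. The paired fit changed no other count of members called at the adjusted threshold by more than 1.5 times. C against B stayed at 0 members in every alternative run, and its median step stayed between -0.22 and -0.14. Depth limits E of oocyte 2 most.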

Other observations

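Some members had levels that differed strongly between oocytes, and some had an isolated zero in E. The 2 described here, 1 of each kind, were chosen after their values were seen. AMEXTC_0340000184225 had 119, 0.291, 38.8 and 110 CPM in A of oocytes 1 to 4 and 121, 0.553, 5.73 and 103 CPM in B. In C it had 103, 7.43, 0.365 and 97.7 CPM. It was thus abundant in oocytes 1 and 4 and lower in oocytes 2 and 3 in each of these segments, with no fixed order of oocytes 2 and 3, and its mean over A, B and C differed 41.5-fold between the highest and the lowest oocyte. Where it was abundant it fell toward the vegetal end, from 119 to 24.96 CPM in oocyte 1 and from 110 to 32.4 CPM in oocyte 4. AMEXTC_0340000163598 had 0 counts in E of oocyte 3, where its other E libraries predicted 112 counts, and 20.4, 57.0 and 47.4 CPM in E of oocytes 1, 2 and 4. It was not called between oocytes (adjusted p 0.743, edgeR).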
